A study of Mus musculus with 3 samples.

Results

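The barcodes described here were selected on the contractile genes of vascular mural cells, the smooth muscle cells and pericytes that surround vessels, in single-cell RNA sequencing of the mouse aortic arch intima. A barcode was selected when 6 genes (Acta2, Tagln, Myh11, Cnn1, Myl9 and Tpm2) made up at least 2% of its UMIs, when it held a UMI (unique molecular identifier, a counted RNA molecule) of Myh11 or Rgs5, and when it held none of Ptprc, the pan-leukocyte gene. The rule selected 345 of 4597 kept barcodes, out of 12082 deposited. They are called contractile-gated barcodes below, because the data did not separate most of them from other barcodes: of the 323 in control replicate 2, 171 were dominated by haemoglobin, and 205 of the 316 haemoglobin-dominated barcodes of that library reached the 2% threshold.

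The study has 3 libraries, all from C57BL/6J wildtype mice aged 12 to 13 weeks of both sexes, with 5 to 10 mice pooled per library. Control replicates 1 and 2 came from untreated mice, and LPS replicate 1 came from mice given 30 µg of ultrapure lipopolysaccharide (LPS, a bacterial cell wall component that activates innate immunity) intravenously 18 h before harvest. All mice were perfused with the transcription inhibitor actinomycin D, and intimal cells were released by a short collagenase and DNase digestion and aspirated from the lesser curvature. Apart from the pooling, nothing in the labels says whether the libraries were separate experiments, and with 1 LPS library the difference between libraries and the difference between treatments cannot be told apart.

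As background, smooth muscle cells of the aortic media contract through actin (Acta2) and smooth muscle myosin (Myh11), regulated by myosin light chain (Myl9), and their thin filaments carry tropomyosin (Tpm2), calponin (Cnn1) and transgelin (Tagln). Rgs5, a regulator of G protein signalling, marks pericytes and some smooth muscle cells. The intima, the innermost layer, is mainly endothelium with resident leukocytes. Many contractile genes are driven by serum response factor, which binds the CArG box.

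The 7 genes of the rule lie on different chromosomes except for Cnn1 and Tagln, which are both on chromosome 9. RefSeq promoter windows of 300 bases on GRCm38.p6 (250 before and 50 after the start) matched 5 of the 7 genes. A strict CArG box has only A or T between CC and GG. Searched on both strands of the palindrome, it occurred in 1 of these 5, the Myl9 window, where it begins 161 bases before the start site. That window and the Acta2 window are shown because Acta2 was the most abundant gene of the rule in the gated barcodes of both controls. The Acta2 window holds ccctatatgg and ccttgtttgg, each 1 base off the strict form, which the search did not count. Capitals mark the strict CArG match.
Myl9, chr2:156775214-156775513, plus strand: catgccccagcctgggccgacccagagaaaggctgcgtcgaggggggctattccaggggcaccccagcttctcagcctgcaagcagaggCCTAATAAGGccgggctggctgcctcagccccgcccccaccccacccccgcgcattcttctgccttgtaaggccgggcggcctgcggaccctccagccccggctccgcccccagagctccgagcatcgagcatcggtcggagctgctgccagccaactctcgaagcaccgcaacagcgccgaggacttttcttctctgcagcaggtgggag
Acta2, chr19:34255324-34255623, minus strand: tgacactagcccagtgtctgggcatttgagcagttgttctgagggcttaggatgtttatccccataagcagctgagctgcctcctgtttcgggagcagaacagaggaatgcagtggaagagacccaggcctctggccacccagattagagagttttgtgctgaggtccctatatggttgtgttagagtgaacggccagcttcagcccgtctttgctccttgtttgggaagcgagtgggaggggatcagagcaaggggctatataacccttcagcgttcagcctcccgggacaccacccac
The motif occurred in 535 of 32851 promoter windows of this length (1.63%), and in 5 of 31 genes with a window among those of the other contractile apparatus. The first count is of windows and the second of genes, so the 2 are not shares of the same unit. A match is a string of letters and not a measured binding site.

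Library totals were 4940996, 20069697 and 21864072 UMIs for control replicates 1 and 2 and LPS replicate 1. Haemoglobin genes made up 44.0%, 7.91% and 25.2% of these UMIs, and Gm42418, an abundant transcript overlapping ribosomal RNA, 9.81%, 1.59% and 28.6%. These transcripts and the mitochondrial ones were removed before the contractile share of each barcode was computed, and the share is given in percent of the UMIs left. The libraries shared 9 barcodes in all, none of them contractile-gated.

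The gate took very different parts of the 3 libraries. In control replicate 1 it held 21 of 403 kept barcodes, or 5.21% (exact Clopper-Pearson 95% interval 3.25 to 7.86%). Control replicate 2 had 323 of 2697, or 12.0% (10.8 to 13.3%). In LPS replicate 1 it held 1 of 1497, or 0.0668% (0.0017 to 0.372%). The intervals cover counting error only. The 2 controls differed beyond it, and 2 libraries against 1 cannot reach an exact permutation p below 0.05, so no test was made of the share.

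The contractile share, which chose the barcodes and is given as a description, had a median of 4.44% in control replicate 1 (range 2.08 to 6.39%) and of 2.50% in control replicate 2 (2.00 to 7.69%). The single LPS barcode had 2.17%, from 461 UMIs left. In control replicate 1 the nearest kept barcode below the threshold had 1.73%, and 3 barcodes that met the other criteria lay between 1.5 and 2%. In the other control, 160 of the 323 (49.5%) lay between 2 and 2.5%, and 151 barcodes that met the other criteria lay between 1.5 and 2%. Kept barcodes that reached 2% but held neither Myh11 nor Rgs5 numbered 8 in control replicate 1 and 37 in control replicate 2, and are outside the gate.

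**Figure D1:**
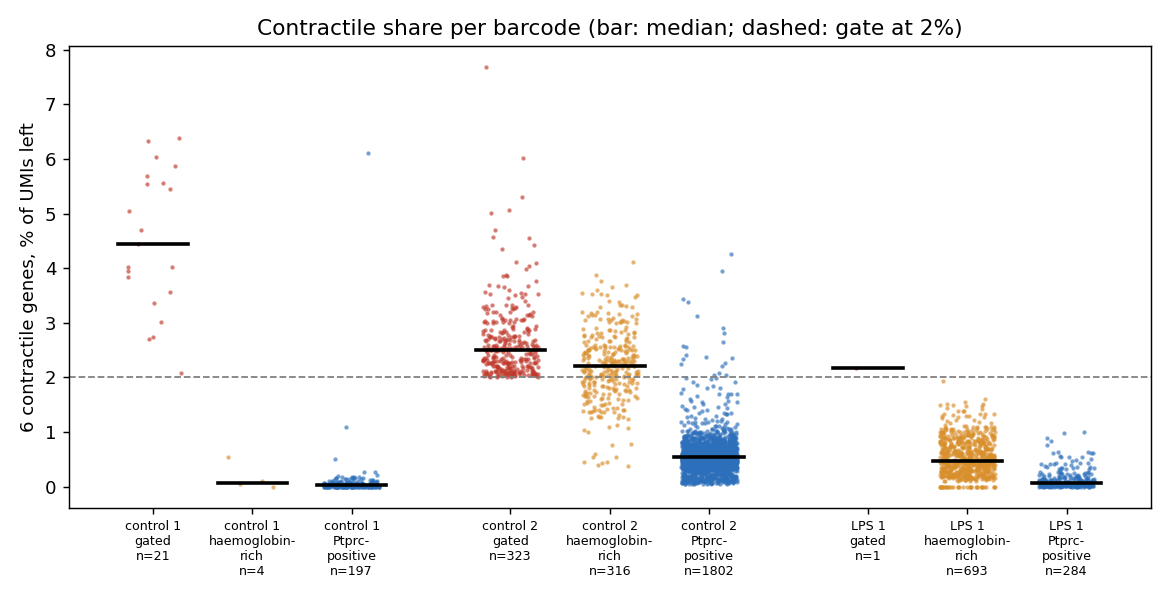
Contractile share of each barcode (percent of UMIs left) by library, for contractile-gated, haemoglobin-rich (over 50% haemoglobin UMIs) and Ptprc-positive barcodes, with the median as a bar and the 2% gate dashed; other Ptprc-negative barcodes are not drawn. The gated barcodes of control replicate 1 (median 4.44%) lie above its haemoglobin-rich ones, while those of control replicate 2 (median 2.50%) overlap its haemoglobin-rich ones (median 2.21%), some of which are the same barcodes.

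Haemoglobin-rich barcodes, in which over 50% of UMIs were haemoglobin, were chosen with no contractile gene and give a level for comparison. Control replicate 2 had 316 of them, with a median contractile share of 2.21% and a highest of 4.12%, and 205 of them reached 2%: the 171 in the gate and 34 outside it. Their pooled share was 2.03%, and that of the 145 outside the gate, which had been selected for missing it, 1.54%, beside 2.69% for the gated barcodes. Of the 323 gated barcodes, 171 were themselves haemoglobin-rich, 43 held 1 to 50% haemoglobin and 109 under 1%. The 10 gated barcodes above every haemoglobin-rich one had shares of 4.35 to 7.69%. These 10 were singled out after the shares were seen. In control replicate 1 only 4 haemoglobin-rich barcodes were kept, with shares of 0 to 0.543%, and all 21 gated barcodes lay above them. In LPS replicate 1 the 693 haemoglobin-rich barcodes had a median of 0.475% and a highest of 1.93%.

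**Figure D2:**
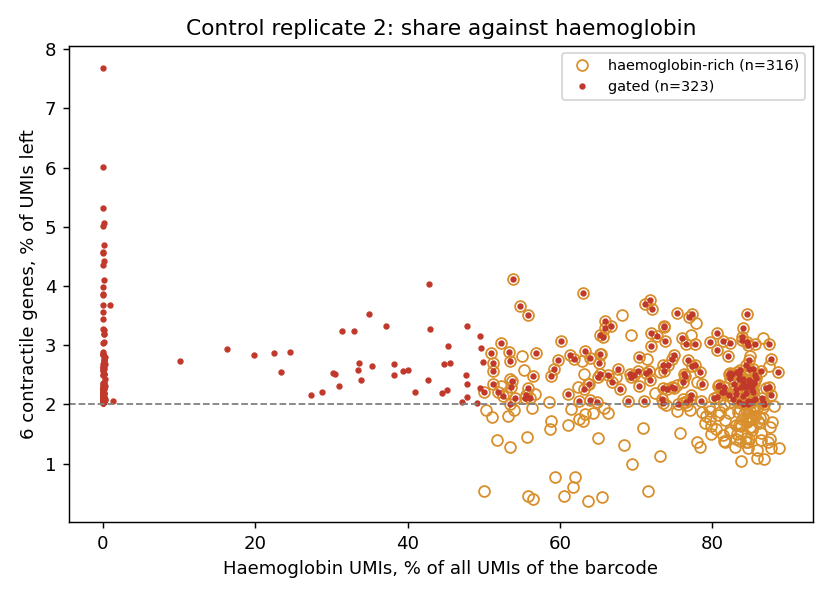
Contractile share (percent of UMIs left) against haemoglobin (percent of all UMIs) for the 323 gated (filled) and 316 haemoglobin-rich (open) barcodes of control replicate 2; 171 barcodes are in both sets. The gated barcodes with shares above 4.12% are the 10 at low haemoglobin.

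Levels of the gate genes in CPM (UMIs of the gene scaled to the UMIs left, summed over a group) showed the same contrast between the controls. Acta2 stood at 16662 CPM in the gated barcodes of control replicate 1 (exact Poisson 95% interval 14625 to 18904) against 57.8 in its Ptprc-positive barcodes. The gene stood in control replicate 2 at 11671 CPM in the gated, 8977 in all haemoglobin-rich, 6957 in the haemoglobin-rich outside the gate and 1754 in the Ptprc-positive barcodes. An Acta2 UMI was held by 1801 of 1802 Ptprc-positive barcodes there, leukocytes that should lack the gene, at a median depth of 3632 UMIs left against 907 in the gated barcodes. In control replicate 1 it was detected in 17.3% of Ptprc-positive barcodes, at a median depth of 3195 UMIs left against 699 in the gated barcodes.

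Tagln, an actin-binding protein, had 14450 CPM in the gated barcodes of control replicate 1 and 5794 in those of control replicate 2, beside 4121 in all haemoglobin-rich barcodes of the latter and 3164 in those outside the gate. Myh11 had 3733 CPM in control replicate 1 gated barcodes, 2619 in control replicate 2 gated barcodes, 1970 in all haemoglobin-rich ones and 1267 in the haemoglobin-rich ones outside the gate. The gate used these genes, so the differences across it are fixed in part by the rule. Cnn1, Myl9 and Tpm2 followed the same order. Rgs5 was rare throughout: 3 of 21 gated barcodes held it in control replicate 1, 22 of 323 in control replicate 2, and none in the LPS barcode. None of the 10 highest barcodes of control replicate 2 held an Rgs5 UMI.

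**Figure D3:**
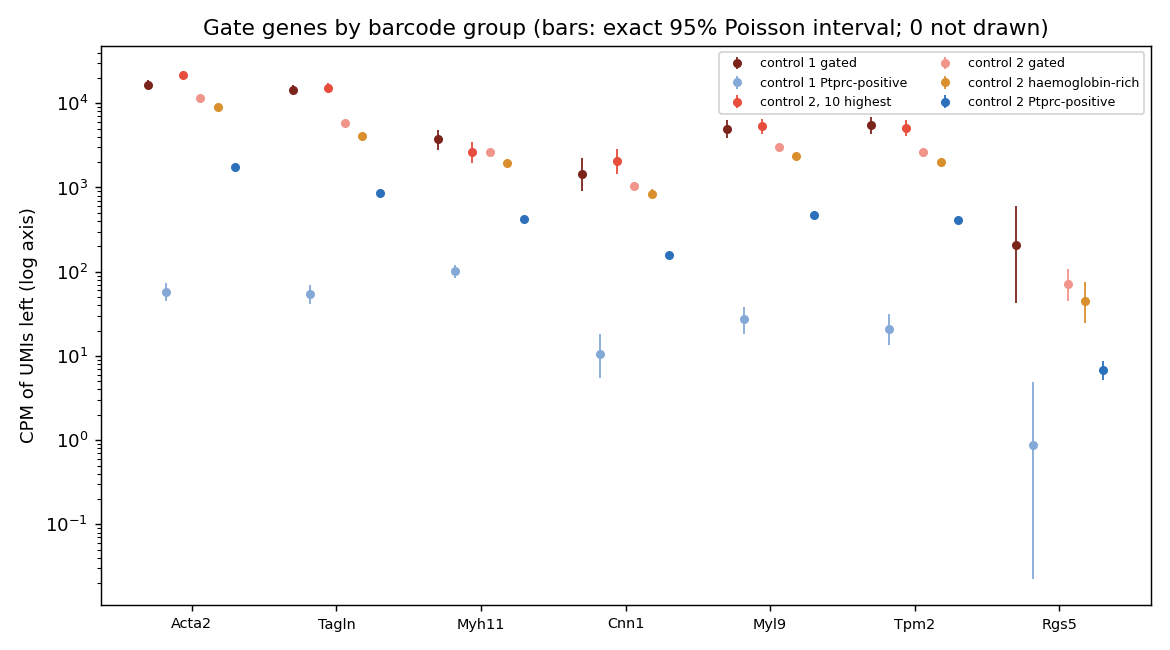
Level of each gate gene in CPM of UMIs left (log axis) by group of barcodes in the 2 controls, with exact 95% Poisson intervals covering counting error only; groups at 0 are not drawn. Gated and haemoglobin-rich barcodes of control replicate 2 differ less (Acta2 11671 and 8977 CPM; 171 barcodes are in both), whereas gated and Ptprc-positive barcodes of control replicate 1 are far apart (16662 and 57.8 CPM).

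With every barcode thinned to 500 UMIs left, which left out 5 gated barcodes of control replicate 1 and none of control replicate 2, detection was compared at equal depth. Acta2 was detected in 100% of gated and 4.57% of Ptprc-positive barcodes of control replicate 1. The rates in control replicate 2 were 98.8% for gated, 97.8% for haemoglobin-rich (171 barcodes are in both) and 66.0% for Ptprc-positive barcodes. The gate used Acta2, so its rate in gated barcodes is fixed in part by the rule. Lmod1, outside the rule, had 37.5% and 4.06% in control replicate 1, and 21.7%, 21.0% and 5.11% in control replicate 2. Of the genes outside the rule examined at this depth, only Itga8 was rarer in gated than in haemoglobin-rich barcodes there (35.3% and 36.3%).

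Smooth muscle markers that the rule did not use were then summed. The 12 markers on the list, among them Lmod1 (leiomodin, an actin nucleator), Mylk (myosin light chain kinase) and Synpo2, summed to 67.8 UMIs per 10000 in the gated barcodes of control replicate 1, with 8 of the 12 detected, against 5.8 in its other Ptprc-negative barcodes. In control replicate 2 they summed to 61.1 in the gated, 55.0 in the 10 highest, 53.6 in all haemoglobin-rich and 45.7 in the haemoglobin-rich barcodes outside the gate. Endothelial markers stood at 4.1 per 10000 in control replicate 1 gated barcodes, where 5 of 12 were detected, but at 40.8 in control replicate 2 gated and 38.1 in all its haemoglobin-rich barcodes. Fibroblast markers stood at 6.9, 31.6 and 26.8 in the same order, and macrophage or dendritic markers at 0.69, 30.9 and 26.2. The last 2 of these groups share 171 barcodes. The part of free RNA in the values of control replicate 2 was not tested.

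**Figure D4:**
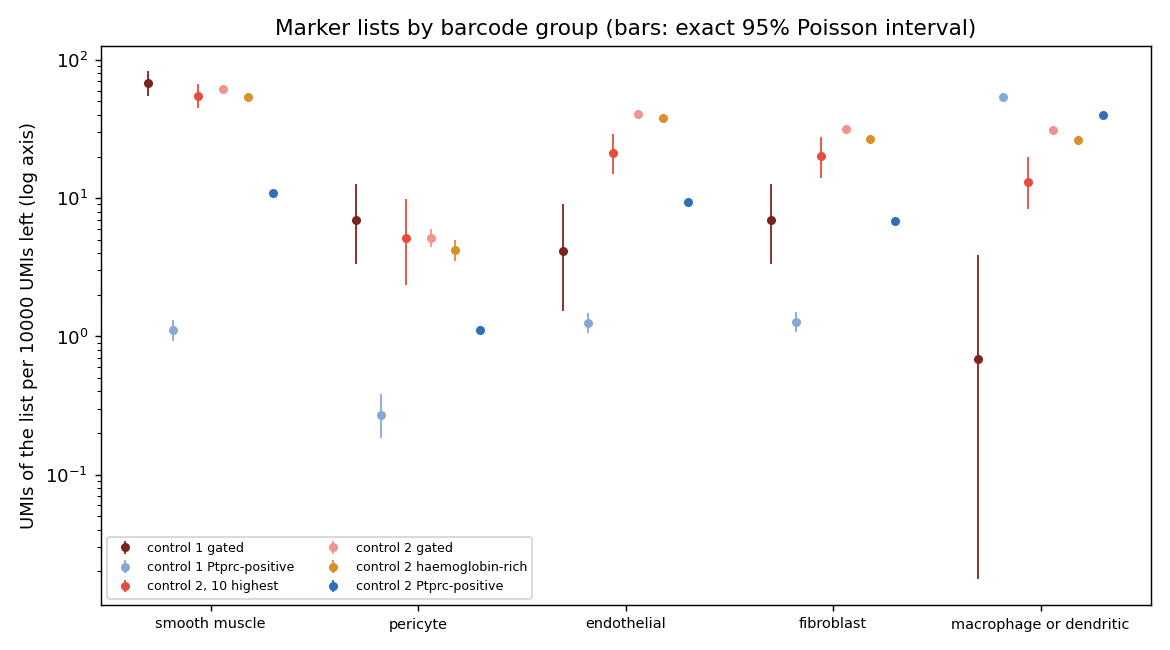
UMIs of each marker list per 10000 UMIs left (log axis) in groups of barcodes of the 2 controls, with exact 95% Poisson intervals covering counting error only. Endothelial markers are at 4.1 in the gated barcodes of control replicate 1 and at 40.8 in those of control replicate 2. Haemoglobin-rich barcodes of the latter are at 38.1, and 171 barcodes are in both sets.

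Pericyte markers summed to 6.9 per 10000 in the gated barcodes of control replicate 1 and to 5.2 in those of control replicate 2. Both values lay below those of the smooth muscle markers in the same barcodes. Within the list, Higd1b and Vtn had no UMI in any gated barcode of the controls. Kcnj8, a potassium channel subunit of pericytes, had 0 UMIs in control replicate 1 and 4 in control replicate 2. The sum in control replicate 1 therefore came wholly from other members of the list, and most of that in control replicate 2 did too.

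Gated barcodes with and without Rgs5 had pericyte markers at levels whose intervals overlapped. Pericyte markers summed to 3.2 UMIs per 10000 in the 22 gated barcodes of control replicate 2 with an Rgs5 UMI (exact Poisson 95% interval 1.3 to 6.5) and to 5.3 in the 301 without (4.5 to 6.2). Smooth muscle markers stood at 69.1 and 60.5, and endothelial markers at 43.8 and 40.6. These are values of 1 library with no test, since control replicate 1 had 3 gated barcodes with Rgs5.

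Summed over whole lists with no filter, the other contractile apparatus stood at 474 UMIs per 10000 in the gated barcodes of control replicate 1, with 30 of 35 genes detected, and at 21.7 in its Ptprc-positive barcodes. The same list stood at 299.9 in the gated, 271 in the haemoglobin-rich and 67.3 in the Ptprc-positive barcodes of control replicate 2. There, 171 barcodes are both gated and haemoglobin-rich, so values of these 2 groups are not independent. Genes of the elastic fibre and media matrix ran the other way between the controls, at 105 per 10000 in the gated barcodes of control replicate 1 and 206 in those of control replicate 2, beside 180 in its haemoglobin-rich barcodes. Calcium and ion channel genes stood at 58.1 and 64.0 in the gated barcodes of the 2 controls, and genes of smooth muscle transcription control at 30.4 and 30.8. Myocd (myocardin, the cofactor of serum response factor in smooth muscle) had 0 UMIs in the gated barcodes of control replicate 1 and 11 in those of control replicate 2.

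Within control replicate 1, gated barcodes were compared with the other Ptprc-negative barcodes. This is a description, since the gate chose the barcodes by genes of the same cells. Of 465 genes with at least 300 CPM in the reference barcodes, 54 (11.6%) were at least 2-fold higher in the gated barcodes and 132 (28.4%) at least 2-fold lower. The balance turned with the filter: under a filter on the mean of both sides, which was the first one used, was replaced after its counts were seen and also admits genes through the gated barcodes, 156 of 465 were higher and 60 lower. Among the other contractile apparatus, 8 of 35 genes passed the first-named filter and 7 of them were at least 2-fold higher, with a median log2 ratio of 2.95 beside -0.04 for all genes. The list of MHC class I and peptide loading, which present antigen, also holds MHC class II genes such as H2-Aa and Cd74. Of its genes that passed the filter, 8 of 8 were at least 2-fold lower.

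By a rule over both controls, set after the LPS library proved to hold 1 gated barcode, 15 genes led the ratio of gated to other Ptprc-negative barcodes. The rule asked for at least 20 UMIs in the gated barcodes of each control, which favours genes that are high there, and Csrp1, Mylk, Lpp and Hcfc1r1 were below 300 CPM in the other barcodes of control replicate 1. Csrp1, a LIM-domain protein of smooth muscle, stood at 1936 CPM in the gated barcodes of control replicate 1 against 132 in the others, a log2 ratio of 3.90, and in control replicate 2 at 1390 against 585, a log2 ratio of 1.25. Mylk gave log2 ratios of 3.92 and 1.21. Csrp2 gave 3.43 and 1.17, and Dstn, an actin-depolymerising factor, 3.12 and 1.16. Tpm1, Lpp, Myl6, Flna, Actn1 and Cald1, all of the actin cytoskeleton, followed. The last 5 were Lgals1, Hcfc1r1, Fth1, Lars2 and Mbnl1. For all of the genes but Lars2 the ratio was larger in control replicate 1.

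Of the elastic fibre and media matrix genes, 11 of 40 were compared in control replicate 1, with 1 at least 2-fold higher, 5 lower and a median log2 ratio of -0.03 beside -0.04 for all genes. Eln (elastin) stood at 968 CPM in the gated barcodes of control replicate 1 and 929 in the others, a log2 ratio of 0.15. Mgp (matrix Gla protein) had a log2 ratio of -0.03 there. Sost, an inhibitor of Wnt signalling and a member of the list below the filter, had 691 CPM against 60.3, from 10 UMIs.

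Within control replicate 2, the gated barcodes were set against haemoglobin-rich barcodes outside the gate. Of 465 genes, 0 (0%) were at least 2-fold higher in the gated barcodes and 53 (11.4%) were at least 2-fold lower. No contractile gene outside the rule was 2-fold higher, 0 of 19, with a median log2 ratio of 0.39 beside 0.05 for all genes. Of the 323 gated barcodes, 171 were themselves haemoglobin-rich, which brings the 2 sides closer. The counts of 0 therefore do not show that the remaining gated barcodes lacked such differences. The 10 highest barcodes differed more from the haemoglobin-rich ones: 29 of 465 genes (6.24%) were higher and 93 (20%) lower. Of the 19 contractile genes 5 were higher and 1 lower. Under the filter on the mean of both sides, 86 were higher and 51 lower. Lmod1 had a log2 ratio of 1.60 and Ppp1r14a, an inhibitor of myosin phosphatase, of 1.83, while Mylk had -0.17.

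Across genes, log2 CPM of the gated barcodes of control replicate 1 gave Pearson r = 0.755 (469 genes) with the 10 highest barcodes of control replicate 2, 0.653 (487 genes) with its other 99 gated barcodes under 1% haemoglobin, and 0.461 (483 genes) with its haemoglobin-rich gated barcodes. The 10 highest and the other 99 correlated at r = 0.780 (479 genes). The haemoglobin-rich gated barcodes correlated at r = 0.921 (464 genes) with the haemoglobin-rich barcodes outside the gate, from the same library. Genes are not independent replicates, the gene sets differ, and the sums differ in depth, so these values are a description.

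LPS could not be compared with control at the 2% gate, because 1 LPS barcode is below the 10 set for a test. A gate at 1% held 27, 640 and 71 barcodes in control replicates 1 and 2 and LPS replicate 1. Their makeup differed: 0, 250 and 57 of them were haemoglobin-rich. Only 26, 87 and 1 of them held at most 1% haemoglobin and under 2 UMIs of other cell type markers. In the same order, Acta2 stood at 14389, 8418 and 1906 CPM, with a UMI in 27, 640 and 43 barcodes. Myh11 stood at 4222, 2176 and 4194 CPM, above Acta2 only in the LPS library. The gate used both genes, so these levels are a description. The part of this makeup in the LPS values was not tested.

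In this set Lcn2 (lipocalin 2, an iron-sequestering acute-phase protein) had 0 UMIs in both controls and 191 in the LPS library, 4855 CPM, at least 1306-fold higher than the level of 3 counts over both controls. Saa3 (serum amyloid A3) had 0 and 71 UMIs, at least 486-fold higher. Most of that depth is from control replicate 2: against control replicate 1 alone, where 3 counts are 167 CPM, the bounds are 29.1-fold and 10.8-fold. Over 1111 genes tested with edgeR's quasi-likelihood test, 12 (1.08%) were higher and 2 (0.18%) lower in the LPS library at a Benjamini-Hochberg adjusted p under 0.05. The test has 1 residual degree of freedom, from the 2 controls, and assumes that the LPS library varies like them. A gene could pass the low-count filter through the LPS library alone, as Lcn2 and Saa3 did, which favours genes that are high there. Besides the pair above, the genes called higher included the metal-binding Mt2 and Mt1, the neutrophil chemokine Cxcl1, the interferon-induced GTPases Gbp2, Gbp3 and Iigp1, the NF-kB inhibitor Nfkbia, the acute-phase Serpina3n and Cdo1. Those called lower were Crip1 and Tmsb4x, an actin-sequestering peptide.

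Values in all haemoglobin-rich barcodes of the LPS library were similar in size. These 693 barcodes include 57 of the 71 in the 1% gate, so the 2 sets overlap. The haemoglobin-rich barcodes held Lcn2 at 4169 CPM, in 92.5% of them, and Mt2 at 4879 CPM against 5515 in the 1% gate. Tmsb4x stood at 1648 CPM there and at 1805 in the 1% gate. Without barcodes holding an Rgs5 UMI, which left 24, 606 and 70, edgeR called 0 of 1178 genes, with 160 at an unadjusted p under 0.05 and the smallest adjusted p at 0.164. The fitted log2 fold changes were close to those above, 5.55 against 5.59 for Mt2 and -4.25 against -4.46 for Crip1. The adjusted p of Lcn2 ran from 5.0e-12 to 0.164 over the settings tried, and was 0.0018 in the main one. DESeq2 called 6 genes higher and 0 lower.

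By list, the 12 tested acute-phase and metal-binding genes had a median log2 fold change of 4.35, beside -0.09 for all genes tested. The median was 4.11 for 7 guanylate-binding proteins and GTPases and 2.95 for 14 type I interferon response genes. For 28 genes of the other contractile apparatus it was -1.05. Members of a list could pass the low-count filter through the LPS library alone, which tilts these medians upward. They are therefore a description and not a result about the lists.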

How the data were processed

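The deposited values are whole-number UMI counts per gene and barcode, which the authors made with Cell Ranger 3.1 on mm10, per the submitters' processing notes; R 4.2.1 and Seurat 4.2.0 are named there too. How barcodes were picked and which annotation release was used is not given in the sources. Members and gene lists were chosen with earlier results of these data known. Barcodes with at least 500 UMIs, 300 genes, at most 15% mitochondrial UMIs and under 40% Gm42418 were kept. No doublet caller was run. Counts were summed per library, since cells are not replicates. Log2 ratios within a library added 1 UMI; the filter of these ratios was changed, after the first counts were seen, from the mean of both sides to the reference barcodes, and both are given. LPS was tested with edgeR 4.0.16 (TMM, filterByExpr), with DESeq2 1.42.0 as an alternative, in R 4.3.3, and the procedure was tested on simulated data. Named genes of the LPS comparison were those past the threshold with the largest change. They also had an average level of 20 CPM or more and an LPS level above or below that of each control. The enriched genes were instead the 15 with the highest log2 ratio, taking the lower of the 2 controls. They needed at least 20 UMIs in the gated barcodes of each control, with no threshold on the ratio and no test. Coordinates and promoters are on GRCm38.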

Additional observations from a re-analysis of the deposited data

How the results depend on the processing

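The share of gated barcodes moved with the gate. In control replicate 1 it was 2.23% at a contractile share of 5% and 10.4% when gated and kept barcodes were both limited to those with no Ptprc UMI and under 1% haemoglobin. In control replicate 2 it was 23.7% at 1%, 0.185% at 5%, 10.5% after thinning and 20.1% under that limit (109 of 542). In LPS replicate 1 it was 4.74% at 1%, and 0 at 5%, after thinning and under that limit (0 of 460). Within control replicate 1, 156 genes were higher and 60 lower with the filter on the mean of both sides (54 and 132 with the reference filter). In control replicate 2, gated against haemoglobin-rich barcodes gave 31 lower, and the 10 highest gave 86 higher and 51 lower. At the 1% gate, edgeR with RLE factors called 5 genes higher and 0 lower, DESeq2 6 and 0, no low-count filter 0 lower, removed genes kept 26 higher and 0 lower, and no Rgs5 UMI 0 and 0. The causes were not tested. No named gene reversed its direction under the settings run, leaving out either control included. With a control left out, the value was not a fit but a log2 difference of CPM with 1 UMI added on average. For Lcn2 and Saa3, at 0 in both controls, it was 10.32 and 8.89 whichever control was left out. The fitted log2 values were 13.32 and 11.89. The 2 measures differ in the count added, so the gap cannot be read as an effect of leaving out a control. Settings with under 10 LPS or control barcodes were not run. Leaving out 1% gate barcodes with haemoglobin or other cell type markers kept 26 and 87 in control replicates 1 and 2 and 1 in LPS replicate 1. In the same order, Gm42418 under 10% kept 0, 640 and 25, and at least 1000 UMIs left kept 1, 353 and 1. The Rgs5 comparison (1 library qualified) and the comparisons with endothelial and fibroblast barcodes were not run either. No paired analysis was possible because GEO's labels give no replicate numbers (those used here are in accession order) and LPS has 1 library. Depth limits control replicate 1 to 14464 UMIs over its 21 gated barcodes.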

Other observations

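One gated barcode of control replicate 2 held 388 UMIs of 8 skeletal muscle genes among 2922 UMIs left, 107 of them of Acta1, skeletal muscle actin. It also held 41 UMIs of Tpm2, which the rule counts and skeletal muscle expresses, and its contractile share was 2.09%. It was singled out after its values were seen. No other gated barcode of any library held 5 or more UMIs of these genes.

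In control replicate 1, 8 kept barcodes had a contractile share of at least 2% but no UMI of Myh11 or Rgs5, and the highest of all shares, 10.7%, was among kept barcodes outside the gate. In control replicate 2, 789 barcodes over the mitochondrial limit of 15% had a share of at least 2%. No criterion on Myh11, Rgs5, Ptprc or the number of genes was applied to them. Of the kept barcodes, 379 had such a share before the criteria on Myh11, Rgs5 and Ptprc, and 323 were in the gate.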
